A study of Caenorhabditis elegans with 30 samples.

Results

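The *nlp-29* group of epidermal antimicrobial peptide genes of *Caenorhabditis elegans* was followed here across 30 whole-animal RNA-seq libraries. It has 7 members, *nlp-27*, *nlp-28*, *nlp-29*, *nlp-30*, *nlp-31*, *nlp-33* and *nlp-34*, of 19988 genes in the tables. The members were chosen by name, with earlier results of these data known, and the estimated counts of their transcripts were summed per gene.

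These genes encode small, glycine-rich secreted peptides made in the epidermis, the single-layered tissue under the cuticle. In the best-studied case, infection by the fungus *Drechmeria coniospora* or wounding raises *nlp-29* through the receptor DCAR-1, the G protein subunit GPA-12, the adaptor TIR-1 and the p38 kinase cascade of NSY-1, SEK-1 and PMK-1. Damage to furrow collagens of the cuticle and high salt raise it as well. A related class of epidermal peptides, the caenacins (*cnc* genes), is controlled in part by the TGF-beta ligand DBL-1.

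The study asked how *C. elegans* recognises oomycetes, using an extract of the oomycete *Myzocytiopsis humicola*, and whether the receptor tyrosine kinase genes *old-1* and *flor-1* are needed for the response. It holds 10 groups of 3 libraries, all from animals collected at the L4 stage. In the first experiment (18 libraries), animals were extract-treated or untreated, and were *old-1(ok1273)*, *flor-1(icb93)* or N2, the wild type. *old-1(ok1273)* is a deletion allele. *flor-1(icb93)* came from a mutagenesis screen in animals that carried the integrated reporter *icbIs5* (*chil-27p::GFP* and *col-12p::mCherry*), which the labels do not name for the sequenced mutants. In the second (6 libraries), animals with the extrachromosomal array *icbEx308* were set against non-transgenic siblings from the same population. The array held *old-1p::OLD-1::GFP* and *bus-1p::GFP*, and the paper's strain list gives its strain the integrated reporter *icbIs4*. A figure legend of the paper places *icbEx308* in *old-1(ok1273)*, an allele that neither the strain list nor the sample labels name for these animals. The siblings are labelled N2 with *icbIs5*, from the strain that carries *icbEx308*. Animals of the same strain share its integrated reporter, which the label and the strain list name differently. In the third (6 libraries), animals with the array *icbEX359*, in which the epidermal *dpy-7* promoter drives *old-1* and which carries hygromycin resistance, were set against animals with the hygromycin resistance marker alone (array *icbEx360*). Neither overexpression experiment included extract. The triplicates were not said to be separate cultures, so that p-values measure the spread between these libraries.

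A run of 6 members lies side by side in 10946 bases of chromosome V (build WBcel235 with the Ensembl annotation). In order they are *nlp-34* (chrV:3978825-3979134, minus strand), *nlp-31* (chrV:3980055-3980622), *nlp-30* (chrV:3981980-3982741), *nlp-29* (chrV:3984425-3984847), *nlp-28* (chrV:3987900-3988316) and *nlp-27* (chrV:3989378-3989770), the last 5 on the plus strand. *nlp-33* lies apart on the same chromosome (chrV:11147346-11147737, plus strand).

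2 features of the tables touched several members and are given before the results. The first was the shared counting of *nlp-27* and *nlp-28*. In the transcript set used for quantification (WormBase WS283), the main *nlp-27* transcript was 1703 bases long, against 316 bases in the Ensembl annotation, while that of *nlp-28* had 334. The estimated counts of these genes were whole numbers, within 0.01, in 2 of 30 libraries, but their sum was whole in 30 of 30, as was each of the other members alone. Reads had thus been divided between *nlp-27* and *nlp-28*, with 0 to 24.1% given to *nlp-28*, and the text gives the pair as one value, *nlp-27* + *nlp-28*. That choice was made after the data were seen.

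The second was transcript length. The difference between a transcript's length and its effective length (the number of start positions a fragment could have had) was 154.6 to 165.4 bases in the 6 *flor-1(icb93)* libraries and 239.8 to 273.4 bases in the other 24. For short transcripts this is a large share. The effective length of *nlp-34* was 110 to 117 bases in *flor-1(icb93)* libraries and 42.2 to 49.8 in the others. That of *nlp-29* was 195 to 205 bases in *flor-1(icb93)* libraries against 106 to 121, and that of *nlp-33* 184 to 194 against 96.7 to 110. Fragment size and the *flor-1* genotype cannot be told apart here.

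Library size ran from 19214839 to 38956390 estimated counts. *old-1* averaged 49.1 ± 9.98 CPM (library counts scaled to a common total) in *old-1p::old-1* animals and 0.738 ± 0.236 in siblings, and 65.1 ± 15.2 in *dpy-7p::old-1* animals against 1.42 ± 0.214 in their controls (SD, n = 3 each). In untreated animals *old-1* fell by 1.22 on the log2 scale in *old-1(ok1273)* against N2 (adjusted p = 0.00284), and *flor-1* fell by 1.15 in *flor-1(icb93)* against N2 (adjusted p = 4.95e-05). *chil-27*, the chitinase-like gene used as the reporter of oomycete recognition, stood at 39.3, 41.2 and 49.7 CPM in extract-treated N2 and at 0, 0.107 and 0 CPM in untreated N2, so that the extract treatment was visible in all 3 treated libraries. A list of 15 oocyte and yolk genes varied with the libraries. Its mean was 0.90 to 1.11 log2 CPM in extract-treated N2, but 1.09, 5.46 and 6.08 in untreated N2, so that untreated library A stood with the treated ones. In *old-1p::old-1* animals it was 7.37, 10.22 and 10.58, against 8.94, 8.84 and 5.37 in their siblings. The members were also tested without these libraries, whereas the other gene lists were counted with all libraries only. In whole animals, fewer epidermal cells and less RNA per cell cannot be told apart.

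Per length, *nlp-33* was the most abundant member in every group, and its margin differed. In TPM, which divides counts by effective length, it averaged 1920 in untreated N2, where *nlp-31* averaged 118, *nlp-34* 85.5, *nlp-29* 79.0 and *nlp-30* 26.5. In *flor-1(icb93)* untreated animals *nlp-33* was at 324 TPM and *nlp-29* at 146. In CPM, *nlp-33* made up 74.9 to 79.0% of the summed level of the 7 members in extract-treated N2 and 67.4 to 78.9% in untreated N2. Its share was 32.6 to 36.1% in untreated *flor-1(icb93)*. In *old-1p::old-1* animals it was 34.2 to 44.4%, overlapping the 39.3 to 64.7% of their siblings. In *dpy-7p::old-1* animals it was 34.6 to 46.3%, and in hygromycin controls 44.3 to 49%.

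**Figure D1:**
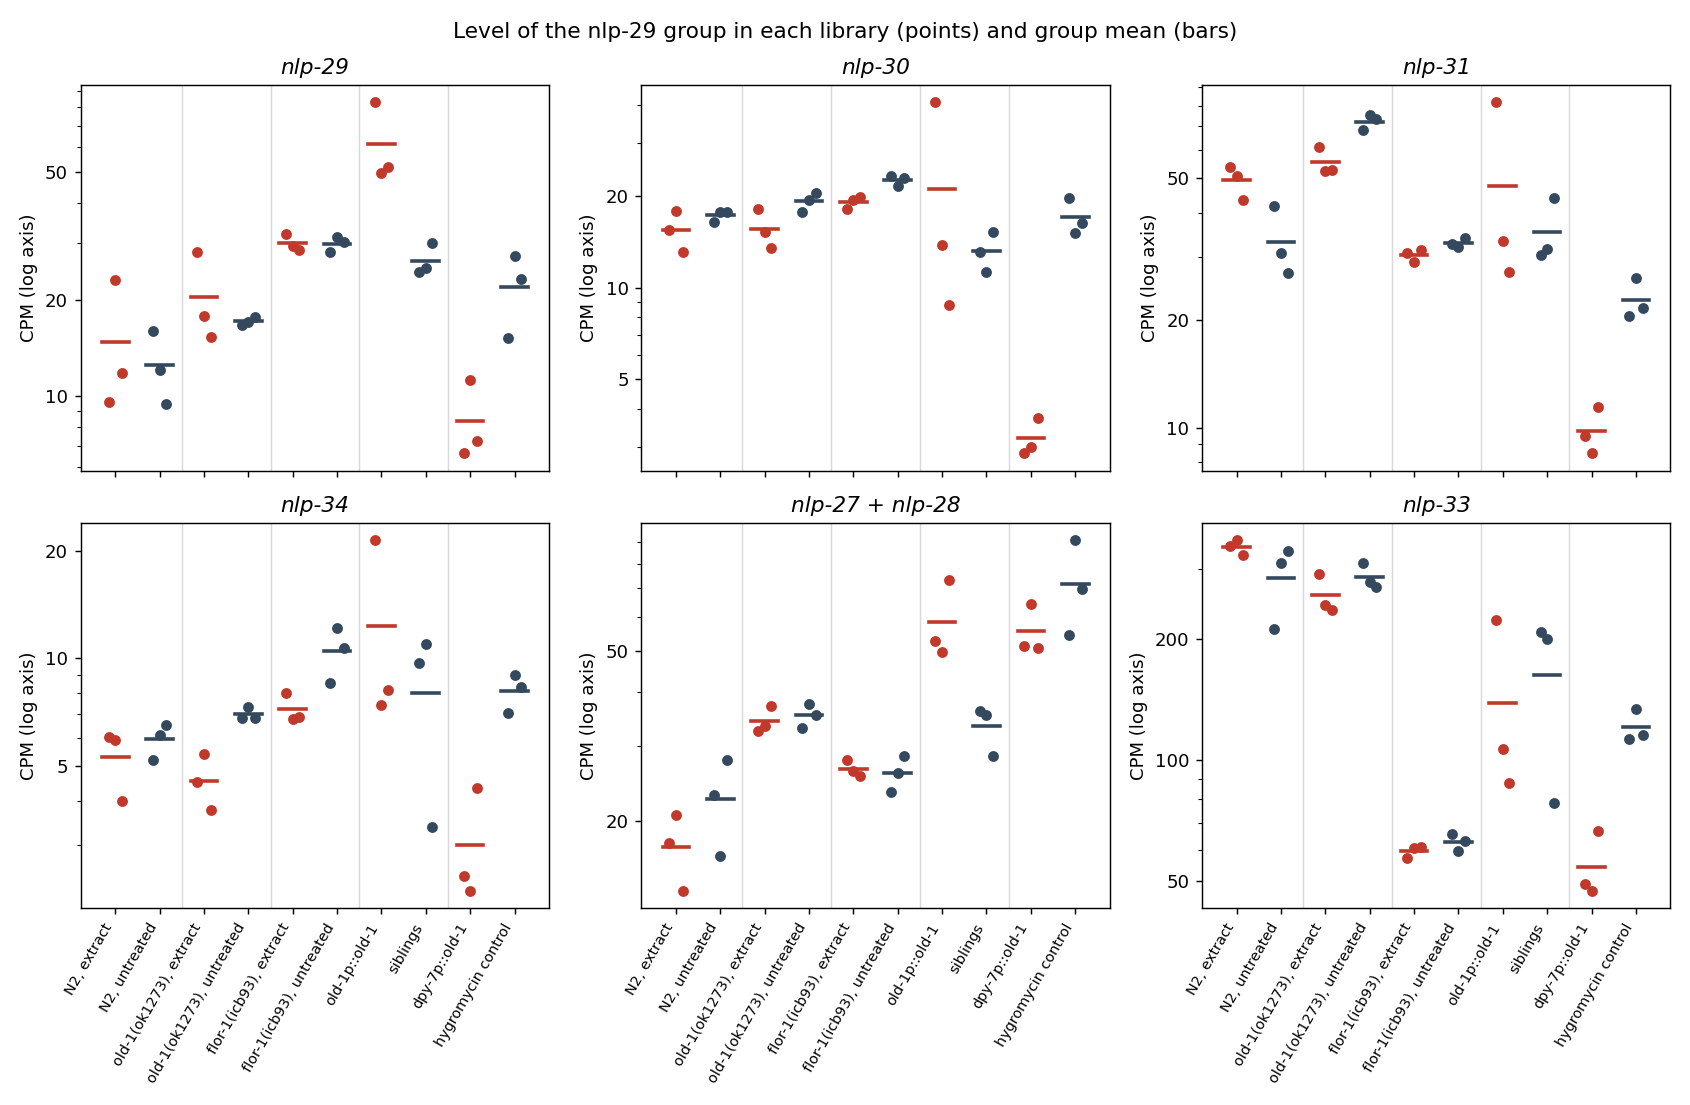
CPM (log axis) of each member in each of the 30 libraries (points) with the group mean (bars), in the 10 groups, with *nlp-27* and *nlp-28* as their sum. *nlp-29* was highest in *old-1p::old-1* animals (49.8 to 82.7) and lowest in *dpy-7p::old-1* animals (6.64 to 11.2), and *nlp-33* was low in both *flor-1(icb93)* groups.

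*nlp-29*, the member most used as a marker of epidermal infection, had a group mean of 61.4 CPM in *old-1p::old-1* animals at the top and 8.35 in *dpy-7p::old-1* animals at the bottom, a ratio of 7.35. Between these lay extract-treated *flor-1(icb93)* (30), untreated *flor-1(icb93)* (29.9), the siblings (26.5), the hygromycin control (21.9), extract-treated and untreated *old-1(ok1273)* (20.4 and 17.1) and extract-treated and untreated N2 (14.8 and 12.5). Of the 9 steps between neighbours in this order, only the one below *old-1p::old-1* did not overlap between libraries. The ratio of the highest to the lowest group mean was 7.38 for *nlp-31*, 7.06 for *nlp-30*, 6.24 for *nlp-33*, 4.13 for *nlp-27* + *nlp-28* and 4.09 for *nlp-34*. *dpy-7p::old-1* was the lowest group for *nlp-29*, *nlp-30*, *nlp-31*, *nlp-33* and *nlp-34*, while for *nlp-27* + *nlp-28* the lowest was extract-treated N2. CPM compares the *flor-1(icb93)* groups with the others without regard to effective length.

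The members did not move as one block. Over the 30 libraries, Pearson's r of log2 CPM was 0.77 between *nlp-30* and *nlp-31*, 0.69 between *nlp-30* and *nlp-34*, 0.67 between *nlp-29* and *nlp-34* and between *nlp-31* and *nlp-33*, and −0.17 between *nlp-29* and *nlp-33*. Over the 24 libraries without *flor-1(icb93)*, whose effective lengths differ, r for these pairs was 0.83, 0.67, 0.65, 0.79 and 0.04 in that order. Between *nlp-30* and *nlp-33* it was 0.37 over the 30 libraries and 0.73 over the 24. These libraries share experiments, strains and stage, and the values are a description. Of 14203 genes with a mean of at least 1 CPM, those most like *nlp-29* over the 30 libraries were *Y54G2A.36* (r = 0.848), *catp-3* (0.841), *F56D5.3* (0.815), *gst-1* (0.806) and *aex-5* (0.805). Over the 18 libraries of the extract experiment they were *oac-7* (0.894), *C27C12.3* (0.886), *atf-7* (0.886), *catp-3* (0.881) and *cng-1* (0.881). *catp-3* stood in both lists, and both lists include the *flor-1(icb93)* libraries.

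The first comparison asked whether extract changed the group in wild-type animals. Extract did not raise *nlp-29* beyond the spread between libraries, and 1 of the 7 members, *nlp-31*, passed the test. A gene was called where edgeR's quasi-likelihood test gave p under 0.01 and an adjusted p under 0.1. By this rule 35% of all genes tested were called in this comparison (14.7% higher), so that 1 of 7 is no more than the background.

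*nlp-31* had 53.9, 50.9 and 43.5 CPM in extract-treated N2, against 41.7, 30.8 and 27.2 in untreated N2. The groups did not overlap, with the lowest treated library just above untreated library A. Its log2 fold change was 0.57 (SE 0.12, 95% interval 0.31 to 0.82, adjusted p = 0.00196). The call was lost with library A as the only untreated library (0.24, adjusted p = 0.168), with the oocyte and yolk level as a covariate (0.22, adjusted p = 0.204) and with only the N2 libraries in the fit (0.56, adjusted p = 0.0778, its unadjusted p being over the limit). With library A alone, that single library was assumed to vary like the other groups.

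*nlp-29* had 9.57, 23 and 11.8 CPM in extract-treated N2, against 16.0, 12.1 and 9.45 in untreated N2. A single treated library, B, lay above all untreated ones. The log2 fold change was 0.24, with an interval from −0.34 to 0.83, so that a rise of up to 0.83 or a drop is compatible with these libraries. *nlp-30* averaged 15.5 CPM in extract-treated N2 and 17.3 in untreated N2 (log2 fold change −0.17, interval −0.41 to 0.08). *nlp-34* averaged 5.31 and 5.95 CPM in the same groups (−0.17, interval −0.55 to 0.21). *nlp-27* + *nlp-28* had 17.7, 20.6 and 13.7 CPM with extract and 23, 16.5 and 27.8 without (−0.38, SE 0.16, adjusted p = 0.0678). That pair was called lower without untreated library B (−0.55, adjusted p = 0.00895) and without extract-treated library B (−0.52, adjusted p = 0.0296).

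*nlp-33* had 342, 353 and 324 CPM in extract-treated N2, against 212, 310 and 332 in untreated N2. The low untreated library was again A. The log2 fold change was 0.25 (SE 0.13, interval −0.02 to 0.52, adjusted p = 0.124). With library A as the only untreated one it was 0.68 (adjusted p = 0.000133), with the yolk covariate 0.67 (adjusted p = 0.000282), and without untreated library C 0.38 (adjusted p = 0.0334). Without library C, and by limma on TPM with all libraries (*nlp-33* at 0.39, adjusted p = 0.0171), *nlp-31* and *nlp-33* were both called. The *nlp-33* call thus depended on the untreated N2 libraries compared, on the covariate and on the method. What sets library A apart was not tested.

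**Figure D2:**
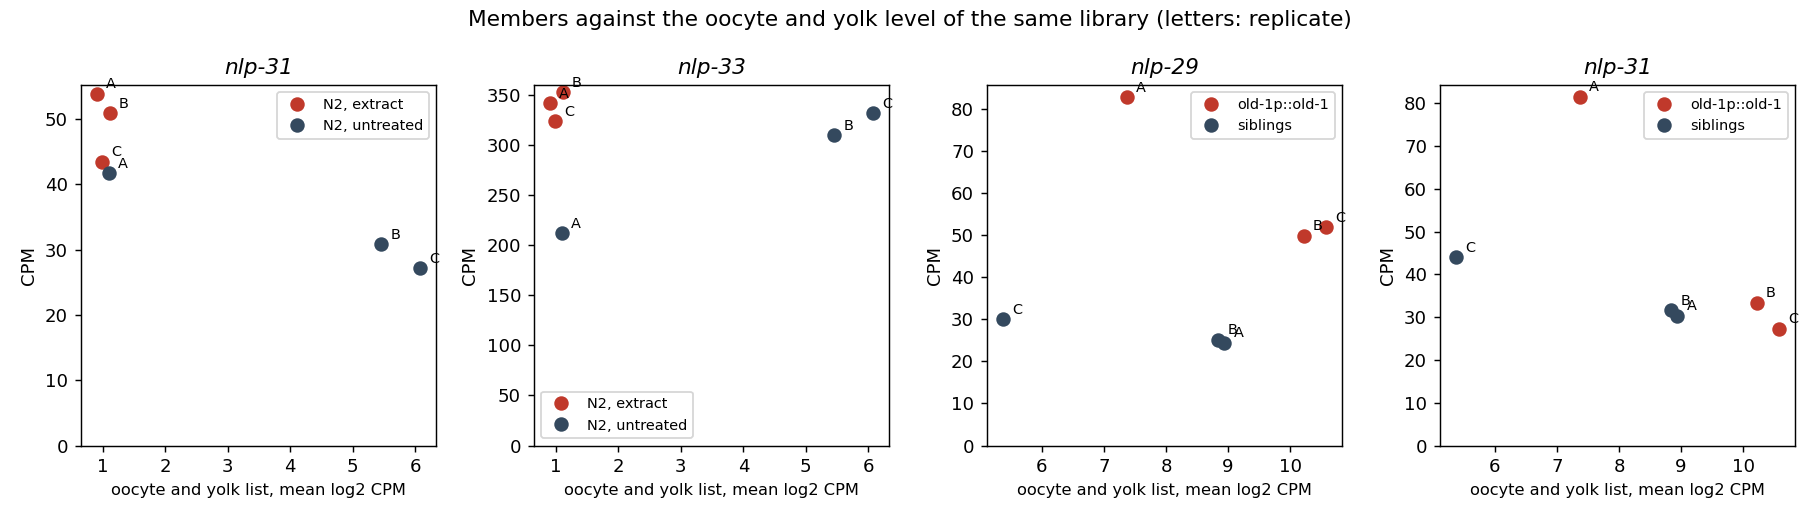
CPM of a member against the mean log2 CPM of 15 oocyte and yolk genes in the same library, for *nlp-31* and *nlp-33* in N2 (left pair) and for *nlp-29* and *nlp-31* in the *old-1p::old-1* experiment (right pair), with the replicate letter beside each point. Untreated N2 library A sat at 1.09, next to the extract-treated libraries, with *nlp-31* at 41.7 and *nlp-33* at 212 CPM, and *nlp-29* was higher in all 3 *old-1p::old-1* libraries than in any sibling library.

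Of 19 p38 cascade and regulator genes of the *nlp-29* pathway, 6 were higher and 1 was lower with extract in N2. Of all genes, 14.7% were higher and 20.4% lower. *nipi-3*, a Tribbles-like pseudokinase needed for *nlp-29* induction by the fungus, had a log2 fold change of 0.60 (SE 0.12, adjusted p = 0.00127). *cebp-1*, a C/EBP transcription factor, had one of 1.14 (SE 0.11, adjusted p = 2.83e-06), and *hpd-1*, an enzyme of tyrosine breakdown, 0.89 (adjusted p = 3.41e-06). Of 7 DBL-1 pathway genes 6 were higher, the ligand *dbl-1* itself by 0.57 (SE 0.10, adjusted p = 0.000384), yet 0 of the 8 caenacins tested were called. Of the 6 furrow collagens 5 were higher, among them *dpy-7* by 0.70 (adjusted p = 0.00162). Among 3 other glycine-rich *nlp* genes tested, *nlp-25* fell by 1.61 and *nlp-26* by 0.85 on the log2 scale (adjusted p = 0.00214 and 0.00476). The medians were 0.25 for the p38 list, 0.57 for the DBL-1 list and 0.24 for the members, against −0.01 over all genes. Over the same libraries all 15 oocyte and yolk genes, 6 of 9 germline genes and 5 of 6 body wall muscle genes were lower, 6 of 9 neuronal genes were higher, and 0 of 6 epidermal markers were called. The part of these in the result was not tested, apart from the yolk covariate above.

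In *old-1(ok1273)* animals, extract lowered *nlp-31* and *nlp-34*, 2 of the 7 members, where 24% of all genes were called (11.3% lower, 12.7% higher). *nlp-31* had 61.4, 52.5 and 52.7 CPM in extract-treated mutants, against 68.1, 75.1 and 73.2 in untreated mutants. The log2 fold change was −0.38 (SE 0.12, adjusted p = 0.0261) and the groups did not overlap. *nlp-34* had 4.50, 5.39 and 3.76 CPM with extract and 6.80, 7.30 and 6.83 without, again with no overlap (−0.63, SE 0.18, adjusted p = 0.0174). Both calls were fragile. Leaving out single libraries gave 0 to 2 called members, with 0 without extract-treated library C or untreated library B, and limma on TPM gave 0. *nlp-29* averaged 20.4 CPM with extract and 17.1 without (0.25, interval −0.33 to 0.82), *nlp-33* 257 and 286 CPM (−0.16, interval −0.43 to 0.11), *nlp-30* 15.6 and 19.3 CPM (−0.31, adjusted p = 0.0561). *nlp-27* + *nlp-28* averaged 34.3 and 35.3 CPM (−0.05, SE 0.15). Of 8 caenacins 4 were lower, including *cnc-2* by 1.34 on the log2 scale (SE 0.31, adjusted p = 0.00481), and 0 were higher. Other lists moved the other way. Of 19 p38 list genes 4 were higher and 1 was lower, and of 16 molting cycle genes 6 were higher and 0 lower. Among epidermal markers 3 of 6 were higher, as were 3 of 9 germline genes, with 0 lower in each, while 2 of 9 neuronal genes were lower.

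In *flor-1(icb93)* animals, 0 members were called with extract, and so were 0% of all genes by edgeR, with 1 member and 644 genes at an unadjusted p under 0.05. DESeq2 called 34 genes in all and limma 2, with no member among them. *nlp-29* had 32, 29.5 and 28.6 CPM in extract-treated mutants, against 28.2, 31.4 and 30.2 in untreated mutants (log2 fold change 0.01, interval −0.55 to 0.58). *nlp-31* had 30.8, 29.1 and 31.4 CPM with extract and 32.8, 32 and 34 without (−0.10, interval −0.36 to 0.15). *nlp-33* averaged 59.6 and 62.8 CPM (−0.06, interval −0.33 to 0.21). *nlp-34* had 8.01, 6.79 and 6.86 CPM with extract and 8.56, 12.2 and 10.7 without. Those groups did not overlap, but its log2 fold change of −0.53 (interval −0.90 to −0.16) had an adjusted p of 1. The replicates of this genotype were close together, with the summed level of the members at 172 to 174 CPM with extract and 182 to 189 without.

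The difference between genotypes was tested as an interaction. For *nlp-31*, the response of *old-1(ok1273)* minus that of N2 was −0.95 on the log2 scale (SE 0.17, interval −1.31 to −0.59, adjusted p = 0.000795), and it was the 1 member called, where 31.1% of all genes were called (13.1% lower). This difference was called under all 22 alternatives, from −1.15 to −0.54, with library A as the only untreated N2 library included. In CPM, *nlp-31* averaged 72.2 in untreated *old-1(ok1273)* and 33.2 in untreated N2, but 55.5 and 49.4 with extract. The extract-treated groups overlapped, so that most of this difference lay between the untreated groups. Against *flor-1(icb93)* the *nlp-31* difference was −0.67 (SE 0.17, interval −1.03 to −0.31, adjusted p = 0.0125), again 1 of 7 members, against 23.9% of all genes (9.48% lower). It was lost with the yolk covariate (−0.32, adjusted p = 0.134) and with library A alone (−0.35, adjusted p = 0.115).

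No difference in the extract response of *nlp-29* was called. It was 0.00 for *old-1(ok1273)* minus N2 (interval −0.88 to 0.88) and −0.23 for *flor-1(icb93)* minus N2 (interval −1.04 to 0.58), intervals wide enough to hold a change of either sign. *nlp-33* had differences of −0.41 (adjusted p = 0.0818, and p above 0.01) and −0.31 (adjusted p = 0.215) for the same contrasts. With library A alone they were −0.83 (adjusted p = 0.000104) and −0.75 (adjusted p = 0.00056), both called. In the p38 list 0 genes had a higher and 4 a lower response in *old-1(ok1273)* than in N2, with *cebp-1* at −1.42 (SE 0.16, adjusted p = 1.42e-05) and the STAT-like factor *sta-2*, which acts downstream of p38 in the epidermis, at −1.18 (SE 0.24, adjusted p = 0.00215). For *flor-1(icb93)* the counts were 0 and 4 as well, with *cebp-1* at −1.20 (adjusted p = 0.000125) and *nipi-3* at −0.51 (adjusted p = 0.0344). Both interactions and the N2 comparison share the 6 N2 libraries.

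The next comparison set untreated mutants against untreated N2. *nlp-31* was higher in untreated *old-1(ok1273)*, at 68.1, 75.1 and 73.2 CPM, against 41.7, 30.8 and 27.2 in untreated N2. Every mutant library lay above every N2 library. The log2 fold change was 1.12 (SE 0.12, interval 0.86 to 1.37, adjusted p = 6.37e-06), and it was called under all 16 alternatives (0.72 to 1.32). *nlp-27* + *nlp-28* was also higher, with 33, 37.6 and 35.4 CPM in mutants and 23, 16.5 and 27.8 in N2 (0.65, SE 0.16, adjusted p = 0.00384; 0.48 to 0.95 under the alternatives, called in each). By the separate gene counts, 3 of 7 members were called higher (*nlp-27*, *nlp-28* and *nlp-31*) and 0 lower, where 39% of all genes were called (15.7% higher), so that the number of members called was near the background.

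*nlp-29* had 16.7, 17.0 and 17.7 CPM in untreated *old-1(ok1273)*, just above the 16.0, 12.1 and 9.45 of N2, and was not called (0.45, interval −0.13 to 1.04). *nlp-33* averaged 286 CPM in mutants and 284 in N2 (0.01, interval −0.26 to 0.27). It was called higher with library A as the only N2 library (0.43, adjusted p = 0.00405) and with the yolk covariate (0.48, adjusted p = 0.00499). *nlp-30* (0.15) and *nlp-34* (0.23) were not called. The caenacins shifted in the same comparison. Of 8 tested, 5 were higher and 0 lower, with *cnc-2* at 1.43 (SE 0.32, adjusted p = 0.00235) and *cnc-4* at 0.92 (SE 0.15, adjusted p = 0.000239). In the p38 list 5 were higher and 3 lower, *sta-2* by 1.05 (SE 0.17, adjusted p = 0.00022) and *gpa-12* by 0.48 (SE 0.09, adjusted p = 0.000545) among the higher. The glycerol-3-phosphate dehydrogenase gene *gpdh-1*, which is raised by osmotic stress, was higher by 1.38 (SE 0.16, adjusted p = 1.02e-05). All 15 oocyte and yolk genes, 6 of 9 germline and 2 of 6 epidermal genes were lower in the mutant, and 7 of 9 neuronal genes higher.

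The *flor-1* mutant differed from N2 in another pattern. *nlp-33* was at 65.8, 59.4 and 63.1 CPM in untreated *flor-1(icb93)*, against 212, 310 and 332 in untreated N2. The ranges were far apart, with the N2 mean 4.53 times the mutant mean. The log2 fold change was −2.17 (SE 0.13, interval −2.45 to −1.89, adjusted p = 8.84e-09), and −2.92 (SE 0.13, adjusted p = 3.73e-10) with effective length as an offset. It was called under all 16 alternatives, from −2.92 to −1.76.

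*nlp-29* was at 28.2, 31.4 and 30.2 CPM in untreated *flor-1(icb93)*, against 16.0, 12.1 and 9.45 in N2 (1.27, SE 0.27, interval 0.69 to 1.85, adjusted p = 0.00139). *nlp-30* had 23.3, 21.6 and 23 CPM in the mutant and 16.5, 17.8 and 17.7 in N2 (0.40, SE 0.11, adjusted p = 0.00923). *nlp-34* had 8.56, 12.2 and 10.7 CPM in the mutant and 5.19, 6.12 and 6.53 in N2 (0.83, SE 0.18, adjusted p = 0.00119). None of the 3 overlapped between the groups, but the share of all genes without overlap is not given here. By separate gene counts 5 of 7 members were called, 3 higher and 2 lower, where 40.7% of all genes were called (20.9% higher, 19.8% lower).

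These 3 higher calls were not kept once effective length entered the fit. *nlp-29* was then at 0.57 (SE 0.27, adjusted p = 0.0976, its unadjusted p being over the limit), *nlp-30* at 0.26 (adjusted p = 0.0687, likewise) and *nlp-34* at −0.26 (adjusted p = 0.247), while *nlp-31*, at 0.00 without the offset, was called lower at −0.41 (SE 0.13, adjusted p = 0.0139). With the offset 0 members were called higher and 3 lower. The fall of *nlp-33* was called on both scales. With library A as the only untreated N2 library, *nlp-29* was at 0.90 and narrowly missed the limit on its unadjusted p (adjusted p = 0.0215), and *nlp-31* was called lower (−0.34, adjusted p = 0.0111). By limma on TPM *nlp-34* was at 0.06 (adjusted p = 0.751).

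*nlp-28* counts were 0, 0 and 1.6 in untreated *flor-1(icb93)* libraries, against 35.6, 19.6 and 7.0 in untreated N2, and it was the other member called lower. The pair showed no such fall, with 23.3, 25.8 and 28.4 CPM in the mutant and 23, 16.5 and 27.8 in N2 (0.21, SE 0.16, adjusted p = 0.272). In untreated N2, however, only 5.87, 6.35 and 0.973% of the pair was given to *nlp-28*, so that the pair could not show a loss of *nlp-28* alone. A lower level of *nlp-28* and another division of reads cannot be told apart here.

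**Figure D3:**
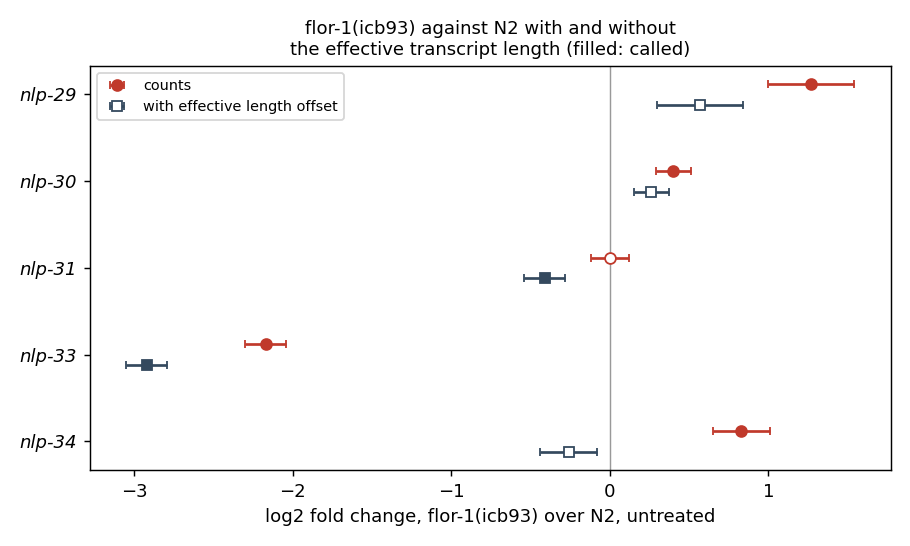
Log2 fold change of 5 members in untreated *flor-1(icb93)* over untreated N2, with its standard error, from counts alone (circles) and with each library's effective transcript length as an offset (squares), where filled symbols were called. *nlp-33* lay at −2.17 and −2.92, and *nlp-34* moved across 0, at 0.83 from counts and −0.26 with the offset.

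Other short glycine-rich genes were also lower in *flor-1(icb93)*. *nlp-24* fell by 1.24 (SE 0.12, adjusted p = 7.82e-07) and *nlp-26* by 1.44 (SE 0.21, adjusted p = 5.82e-05) on the log2 scale, 2 of 3 tested. Of 8 caenacins, *cnc-7* was higher by 2.86 (SE 0.72) and *cnc-3* lower by 1.07 (log2 fold change −1.07, SE 0.13). The list values in this paragraph are from counts alone, and those with effective length as an offset are not given here. Higher values of short genes thus carry the limit shown above for the members. In the p38 list 1 gene was higher and 7 were lower, among them the receptor gene *dcar-1* at −0.80 (SE 0.09, adjusted p = 2.54e-06) and *gpa-12* at −0.50 (adjusted p = 0.000289). Furrow collagens were lower for 5 of 6 and higher for 1. Of 6 epidermal markers 3 were lower and 1 higher, with the mean of the list at 5.16 to 5.28 log2 CPM in the mutant and 5.32 to 5.73 in N2. Body wall muscle genes were lower for 5 of 6 and intestinal genes for 4 of 8. Oocyte and yolk genes were higher for 7 of 15 and lower for 0. The mean of that list was 6.59, 6.9 and 6.73 log2 CPM in the untreated mutant and 1.09, 5.46 and 6.08 in untreated N2. The part of these lists in the fall of *nlp-33* was not tested, apart from the yolk covariate among the alternatives.

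Overexpression of *old-1* from its own promoter was compared with siblings that had lost the array. *nlp-29* had 82.7, 49.8 and 51.8 CPM in *old-1p::old-1* animals, against 24.4, 25.1 and 30 in siblings. All 3 transgenic libraries lay above all sibling libraries, with means of 61.4 ± 18.5 and 26.5 ± 3.04 CPM (SD, n = 3 each), a ratio of 2.32. The log2 fold change was 1.25 (SE 0.25, interval 0.66 to 1.85), but the adjusted p was 0.15, so that it was not called. Here edgeR called 0 members and 0.117% of all genes (19 genes, 0.0921% higher and 0.0246% lower), with 3 members and 3126 genes at an unadjusted p under 0.05. DESeq2 called *nlp-29* (1.23, adjusted p = 0.00257), and so did edgeR with the yolk covariate (1.48, adjusted p = 0.0252) and without *old-1p::old-1* library A (0.84, adjusted p = 0.0234). The median of all genes was 0.11 in this comparison and that of the members 0.66.

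For *nlp-30*, *nlp-31* and *nlp-34*, library A of the transgenic animals stood out. *nlp-30* had 40.7, 13.8 and 8.77 CPM in *old-1p::old-1* animals, against 13.1, 11.3 and 15.3 in siblings (0.70, interval −0.59 to 1.99). *nlp-31* had 81.6, 33.4 and 27.3 CPM in transgenic animals and 30.4, 31.6 and 44.0 in siblings (0.46, interval −0.55 to 1.47). *nlp-34* had 21.4, 7.39 and 8.15 CPM in transgenic animals and 9.68, 11 and 3.38 in siblings (0.66, interval −0.69 to 2.01). For each of these genes, transgenic library A was the highest of the 6, and the other transgenic libraries lay within or below the range of the siblings. Without library A the log2 fold changes turned to −0.33, −0.32 and −0.13. *nlp-33* had 223, 107 and 87.8 CPM in transgenic animals and 209, 201 and 78.4 in siblings (−0.17, interval −1.27 to 0.92), and its lowest sibling library, C, was the one with the lowest oocyte and yolk level.

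*nlp-27* + *nlp-28* had 52.8, 49.7 and 73.2 CPM in *old-1p::old-1* animals and 36.1, 35.3 and 28.4 in siblings, with no overlap (0.87, SE 0.22, adjusted p = 0.187; called by DESeq2, adjusted p = 0.0637). The division of reads within the pair differed too, with 5.77, 23.4 and 24.1% given to *nlp-28* in transgenic libraries and 4.68, 5.38 and 1.35% in siblings. Of the other peptide genes, *cnc-2* was called, at 3.56 (SE 0.35, adjusted p = 0.0444), as 1 of 7 caenacins tested. None of the 19 p38 list genes was called, with a median of −0.38. The molting list averaged 7.76, 6.05 and 5.28 log2 CPM in transgenic animals and 7.28, 7.49 and 8.23 in siblings, so that of the transgenic animals only library A, in which *nlp-30*, *nlp-31* and *nlp-34* were highest, lay within the range of the siblings. The part of the molting list in these values was not tested.

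Overexpression from the epidermal *dpy-7* promoter went with lower RNA levels of most members. In *dpy-7p::old-1* animals 5 of the 7 members were lower than in hygromycin controls and 0 were higher. None of the 5 overlapped between groups, but the share of all genes without overlap is not given here. Of all genes, 45.8% were called (20.9% lower, 24.9% higher). The median over the members was −1.18, against −0.09 over all genes tested.

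*nlp-30* moved most, with 2.86, 3 and 3.74 CPM in *dpy-7p::old-1* animals and 19.7, 15.1 and 16.3 in controls. The control mean was 5.31 times that of the transgenic animals (−2.37, SE 0.18, interval −2.77 to −1.98, adjusted p = 1.2e-05). *nlp-29* had 6.64, 11.2 and 7.22 CPM in transgenic animals and 15.2, 27.3 and 23.3 in controls (−1.35, SE 0.25, interval −1.91 to −0.79, adjusted p = 0.00156). *nlp-31* had 9.47, 8.49 and 11.4 CPM in transgenic animals and 20.5, 26.2 and 21.6 in controls (−1.18, SE 0.15, adjusted p = 0.000223). The transgenic libraries were below all controls for each of these.

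*nlp-33*, outside the cluster, had 49.2, 47.4 and 66.7 CPM in *dpy-7p::old-1* animals and 113, 134 and 116 in controls (−1.12, SE 0.14, interval −1.43 to −0.80, adjusted p = 0.000197). *nlp-34*, on the opposite strand, had 2.47, 2.24 and 4.33 CPM and 7.05, 9 and 8.31 in the same groups (−1.40, SE 0.25, adjusted p = 0.00137), from 53 to 96 and 162 to 190 counts per library. The pair *nlp-27* + *nlp-28* at the other end of the cluster overlapped, with 51.4, 64.5 and 50.8 CPM in transgenic animals and 54.6, 90.8 and 69.7 in controls (−0.33, SE 0.18, adjusted p = 0.144). Its difference from the other members was not tested. With the yolk covariate the pair was called lower as well (−0.98, adjusted p = 0.0105), while *nlp-34* was not called (−1.16, adjusted p = 0.0769). Under the 14 alternatives *nlp-29*, *nlp-30*, *nlp-31* and *nlp-33* were called lower in each. Their ranges were −2.20 to −1.12, −2.49 to −1.91, −1.30 to −1.03 and −1.28 to −1 in that order.

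**Figure D4:**
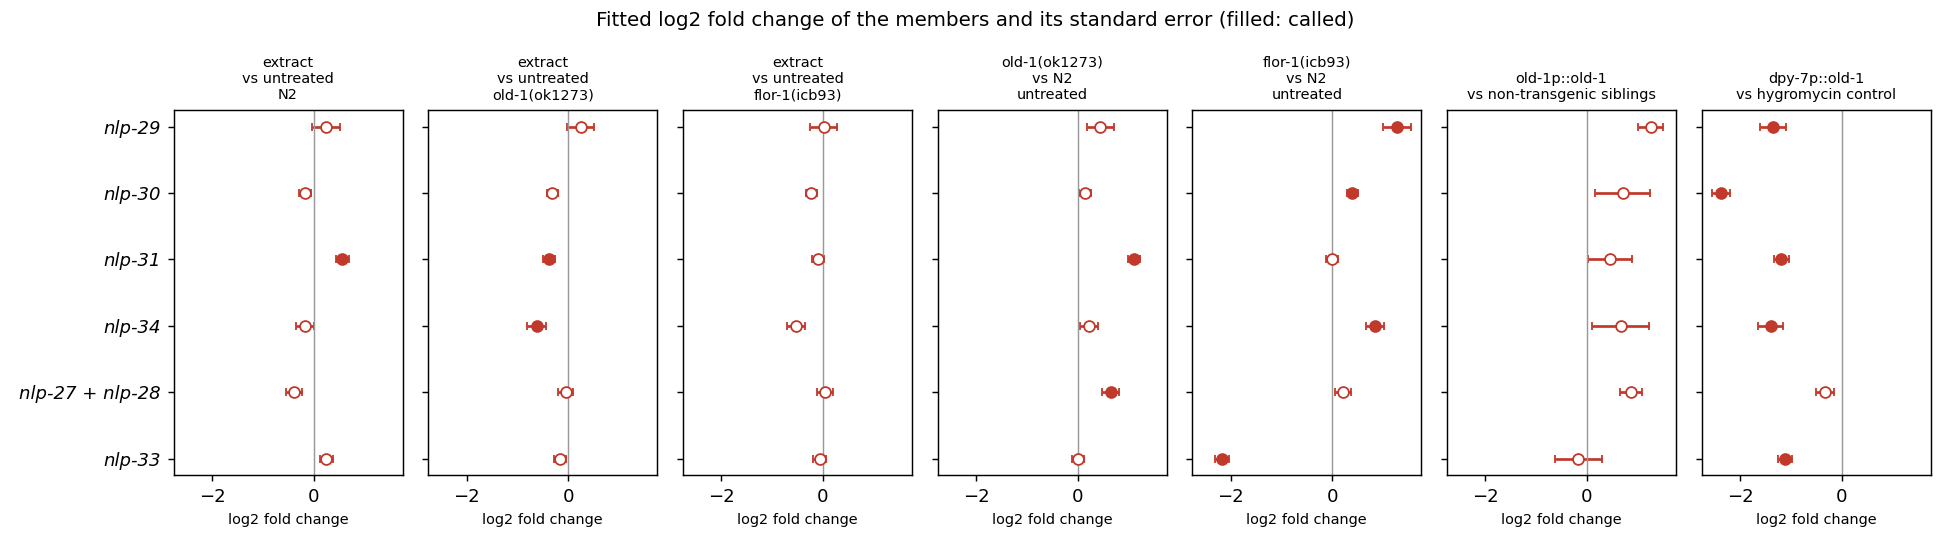
Log2 fold change of 5 members and of *nlp-27* + *nlp-28*, with its standard error, in 7 comparisons (first-named group over second-named), where filled points were called. The members lay on both sides of 0 in most comparisons, and 5 were called lower in *dpy-7p::old-1* animals, from −2.37 for *nlp-30* to −1.12 for *nlp-33*.

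The fall took in related peptide genes. *nlp-24* (−1.45, SE 0.13, adjusted p = 2.73e-05) and *nlp-25* (−2.47, SE 0.31, adjusted p = 0.000182) were lower, 2 of 3 other glycine-rich genes, as were 2 of 5 caenacins, *cnc-4* by 2.22 (log2 fold change −2.22, SE 0.22) and *cnc-8* (−0.91, SE 0.20). Of the p38 list 10 were lower and 1 was higher, with *nsy-1* at −0.96 (SE 0.09, adjusted p = 4.2e-05), *plc-3*, a phospholipase C, at −0.93 (SE 0.12) and the akirin gene *akir-1* at 0.76 (SE 0.10). Of the DBL-1 list 5 of 7 were lower. *gpdh-1* fell by 1.96 (SE 0.19, adjusted p = 4.6e-05). The epidermal markers averaged 4.56 to 4.71 log2 CPM in transgenic animals and 4.56 to 4.82 in controls, with 1 of 6 called higher and 2 lower. The other tissue lists moved, with 6 of 6 body wall muscle and 7 of 8 intestinal genes lower and 8 of 9 germline genes higher. Oocyte and yolk genes averaged 9.80 to 10.27 log2 CPM in transgenic animals and 9.08 to 9.70 in controls, and 7 of 15 were higher. How much these shifts contributed was not tested.

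Within the 6 libraries of this experiment, the called members ran closely together, with r of 0.82 to 1 among *nlp-29*, *nlp-30*, *nlp-31*, *nlp-33* and *nlp-34*. Such values largely restate the difference between the 2 groups, since each of the 5 was lower in one of them. *nlp-27* had r of 0.54 to 0.88 with these 5.

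The 2 ways of overexpressing *old-1* were set against each other by the difference of their log2 fold changes, in a fit over the 12 libraries that was added after the data were seen. *nlp-29* differed by −2.47 (SE 0.41, interval −3.37 to −1.58, adjusted p = 0.0119) and *nlp-30* by −2.96 (SE 0.64, interval −4.36 to −1.55, adjusted p = 0.0342), lower under the *dpy-7* promoter. They were the 2 members called, where 6.04% of all genes were called (3.2% lower). *nlp-31* (−1.52, adjusted p = 0.133), *nlp-34* (−1.92, adjusted p = 0.181) and *nlp-33* (−0.81, adjusted p = 0.508) were also negative but not called. *cnc-2* and *cnc-4* differed by −3.29 (SE 0.41, adjusted p = 0.00283) and −3.34 (SE 0.45, adjusted p = 0.00441). The 2 strains reached similar *old-1* levels, 46.4, 40.7 and 60.1 CPM under the *old-1* promoter and 52.4, 60.9 and 82.0 under the *dpy-7* promoter. They also differed in array, reporter, selection and control, so that the promoter and these cannot be told apart.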

How the data were processed

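Total RNA of whole L4 animals was sequenced by BGI and Novogene (which library by which is not given in the sources used here). The authors quantified reads with kallisto against WormBase WS283 and deposited, per library, estimated counts with transcript length and effective length. They tested with a Wald test of sleuth, whose thresholds (p under 0.01, adjusted p under 0.1) were kept. kallisto's version is not given in the sources used here.

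Transcripts were summed to 19988 genes by sequence name, taking gene names from the Ensembl annotation of WBcel235, and rounded to whole numbers. Of the counts, 63.3% matched by transcript name and 36.7% by sequence name. Genes were kept by filterByExpr (min.count 5, min.total.count 15), scaled by TMM and tested in R 4.3.3 without a replicate block, by edgeR 4.0.16 (quasi-likelihood, two-sided). The 18 libraries of the extract experiment shared 1 fit and each overexpression experiment (6 libraries) had its own, as its strains and controls were separate. P-values were adjusted over all genes tested (Benjamini-Hochberg). Intervals are 95% and residual degrees of freedom were 12 in the extract fit. CPM in the text is scaled by TMM over all 30 libraries. TPM was computed from the estimated counts and effective lengths. The tests were tried on simulated data. No pair of libraries within a group was a duplicate.

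The alternatives were a replicate block, DESeq2 1.42.0, size factors by RLE, a mean of at least 1 CPM or no filter on low counts, limma 3.58.1 on log2(TPM + 1), effective length as an offset, an oocyte and yolk covariate, only the compared groups, adjusted p under 0.05 alone, leaving out libraries, and, chosen after seeing the data, the sum of *nlp-27* and *nlp-28* and the fit over both overexpression experiments. All 7 members are named, with up to 4 called genes of each list, by smallest adjusted p, eligible to be named. The members and lists were chosen with earlier results of these data known. The epidermal list had 6 of 7 genes matched.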

Additional observations from a re-analysis of the deposited data

Results flagged for a closer look

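These results are listed because the effect of 1 contrast differed between groups by a test of the difference itself. The extract response of *nlp-31* was lower in *old-1(ok1273)* than in N2, with a difference of −0.95 in log2 fold change (SE 0.17), and lower in *flor-1(icb93)* than in N2, with a difference of −0.67 (SE 0.17). Both use the same N2 libraries. For *old-1(ok1273)*, mutant and N2 means of *nlp-31* were far apart untreated (72.2 and 33.2 CPM) and close with extract (55.5 and 49.4 CPM). The response to *old-1* overexpression was lower under the *dpy-7* promoter than under the *old-1* promoter for *nlp-29*, by a difference of −2.47 (SE 0.41), and for *nlp-30*, by a difference of −2.96 (SE 0.64). In *nlp-30* the *old-1p::old-1* mean rests on library A (40.7 CPM, against 13.8 and 8.77 in the others).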

How the results depend on the processing

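Of 891 alternative log2 fold changes of *nlp-29*, *nlp-30*, *nlp-31*, *nlp-33*, *nlp-34* and *nlp-27* + *nlp-28*, 798 kept their direction and their side of the threshold, 25 gained and 22 lost a call, and 46 changed sign. Among the last, 1 had passed as reported (*nlp-34* in *flor-1(icb93)* against N2, −0.26 with effective length) and 1 passed under the alternative (*nlp-31* there, 0.32 with the yolk covariate). That *nlp-31* value, 0.00 as reported, was 0.01 with DESeq2, RLE size factors and the replicate block.

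The count of members called with extract in N2 (1) was 2 by limma and 0 with only the compared groups. In *old-1(ok1273)* it was 0 by limma instead of 2, and 4 with the yolk covariate or only the compared groups. The *old-1(ok1273)* interaction gave 2 instead of 1 with the yolk covariate or library A alone. *old-1(ok1273)* against N2 gave 1 instead of 3 with only the compared groups, and *flor-1(icb93)* against N2 3 instead of 5 with effective length. *old-1p::old-1* gave 2 instead of 0 by DESeq2 and with the yolk covariate. Leaving out 1 library at a time gave 1 to 2 called members in N2 and in both interactions, 0 to 2 in *old-1(ok1273)* and 0 to 2 in *old-1p::old-1*. The other counts stayed within 1.5 times. The causes were not tested.

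Small values changed sign. With the yolk covariate and with library A alone, the N2 extract values of *nlp-29* were −0.12 and −0.09 and of *nlp-34* 0.05 and 0.03, and the *flor-1(icb93)* interaction of *nlp-29* was 0.13 and 0.10. By limma *nlp-33* was 0.03 with extract in *old-1(ok1273)*, −0.10 in *old-1(ok1273)* against N2 and 0.06 in *old-1p::old-1*, *nlp-30* was 0.00 in *old-1(ok1273)* against N2, and *nlp-27* + *nlp-28* was −0.27 in the *old-1(ok1273)* interaction and −0.05 in *flor-1(icb93)* against N2. The *old-1(ok1273)* interaction of *nlp-29* was −0.01 with a mean of at least 1 CPM and only the compared groups, and −0.02 with the replicate block and effective length.

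Leaving out 1 library at a time, *nlp-29* ranged from −0.23 to 0.49 with extract in N2, −0.06 to 0.42 in *old-1(ok1273)* and −0.04 to 0.04 in *flor-1(icb93)*, and from −0.30 to 0.48 and −0.48 to 0.23 in the 2 interactions. *nlp-34* in N2 ranged from −0.26 to 0.01, *nlp-30* in the *flor-1(icb93)* interaction from −0.18 to 0.05, *nlp-33* in *old-1(ok1273)* against N2 from −0.16 to 0.13, and *nlp-31* in *flor-1(icb93)* against N2 from −0.15 to 0.18. *nlp-27* + *nlp-28* ranged from −0.10 to 0.00 with extract in *old-1(ok1273)* and −0.03 to 0.11 in *flor-1(icb93)*. In *old-1p::old-1* the ranges were −0.33 to 1.04 for *nlp-30*, −0.32 to 0.69 for *nlp-31*, −0.83 to 0.02 for *nlp-33* and −0.13 to 0.96 for *nlp-34*.

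Over all genes, calls in N2 fell to 2471 with the yolk covariate, 2275 with only the compared groups and 2609 with library A alone, against 5901. In *old-1p::old-1* they were 1451 by DESeq2, 65 by limma, 9 at an adjusted p under 0.05, 1942 with the yolk covariate and 0 with the block, against 19, and 0 to 3750 with 1 library left out, highest without transgenic library A. The *old-1(ok1273)* interaction gave 3384 against 5232 and *dpy-7p::old-1* 3360 against 7396 with the yolk covariate. The *flor-1(icb93)* interaction gave 2647 by limma, 1999 with the yolk covariate, 2096 with library A alone and 6267 without it, against 4021. With only the compared groups, *old-1(ok1273)* against N2 gave 3562 against 6577, *flor-1(icb93)* against N2 4355 against 6859, and extract in *flor-1(icb93)* 33 against 0.

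Replicate labels were shared between groups, but same-labelled libraries did not deviate together, with correlations of −0.47 to 0.35 and 1 of 21 above 0.1. With the replicate as a block, the number of members called was that of the unblocked fit in each of the 9 comparisons (1, 2, 0, 1, 1, 3, 5, 0 and 5). Effective length was not run for *nlp-27* + *nlp-28*, whose length depends on the division of reads. Precision is limited by 3 libraries a group and, for *nlp-28* and *nlp-34*, by low counts.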
